A study of Mus musculus with 72 samples.

Results

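The members are 66 X-linked mouse genes that start between 6.048 and 23.693 Mb on the X chromosome, at its centromeric end. They were taken as every gene of the allelic ratio table of either cell line with a start below 35000000 (mm10), leaving out 4 genes by name (Kdm6a, Ddx3x, Cask and Usp9x). All 66 were in the table of the iXist-ChrX_Dom line and 62 were in that of the iXist-ChrX_Cast line, out of 410 X-linked genes in either table. The next listed gene, Dock11, started at 35.889 Mb. Xist lies at X:103460372-103483233, so the members sat 79.654 to 97.406 Mb away from it.

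X chromosome inactivation balances X-linked gene dosage between XX and XY mammals. Xist RNA spreads in cis from its own locus over the chromosome that becomes the inactive X (Xi) and recruits factors that silence its genes, while the other X stays active (Xa). SmcHD1 is a chromosomal protein of the SMC family that joins the Xi late in this process, and its loss is known to leave part of the X-linked genes incompletely silenced.

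Chromatin-associated RNA sequencing (ChrRNA-seq), which reads mostly nascent transcripts, was available for 72 libraries of interspecific XX mouse embryonic stem cells (mESCs) and of cells differentiated from them towards neural precursor cells (NPCs). Doxycycline induces Xist on the X of domesticus origin in iXist-ChrX_Dom cells and on the X of castaneus origin in iXist-ChrX_Cast cells, so that the Xi is the same chromosome in every cell of a line. WT libraries (12 and 14, respectively) covered induced cells at days 2, 3, 5, 7, 15, 21 and 35, and also day 52 in iXist-ChrX_Dom. SmcHD1 knockout (KO) libraries came from clone A3 of iXist-ChrX_Dom (14 libraries) and from clones D5 and G6 of iXist-ChrX_Cast (16 libraries each), on the same days and from uninduced mESCs. There was no uninduced WT library. Within a line, every induced library carries the same inducible Xist allele and had doxycycline throughout, so the contrast in each line was WT against KO. Each KO line is a single clone of edited cells, and from day 15 each clone had 1 library per day. The days then stood in for replicates, and p-values measured only the spread between these libraries. The labels number the A3 library of day 15 as replicate 2 and those of days 21, 35 and 52 as replicate 1. For D5 and G6, day 15 was replicate 1 and days 21 and 35 were replicate 2. The late WT titles carry no replicate number. In both lines the deposited name of the WT library of day 15 has another form than those of the later days. Whether days with the same number or form of name came from one culture is not stated, so the days may not be independent.

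The promoters of 4 members are shown because their genes stand for the patterns described below, and they were chosen after the values were seen. Uba1 had a raised Xi share in KO cells of both lines at late days, and Usp11, a close downstream neighbour, was called in iXist-ChrX_Cast and not in iXist-ChrX_Dom, with no difference between the lines past the threshold. Otud5 was the member with the largest late KO difference in iXist-ChrX_Dom. Zfp300 had the shortest fitted half-time on average over the lines, on few allelic fragments (medians of 27.5 and 22 per library). Each sequence is the 250 bases before the RefSeq start (GRCm38.p6) on the gene's own strand, 5′ to 3′, with CG dinucleotides in capitals.
Uba1 (X:20658052-20658301, plus strand): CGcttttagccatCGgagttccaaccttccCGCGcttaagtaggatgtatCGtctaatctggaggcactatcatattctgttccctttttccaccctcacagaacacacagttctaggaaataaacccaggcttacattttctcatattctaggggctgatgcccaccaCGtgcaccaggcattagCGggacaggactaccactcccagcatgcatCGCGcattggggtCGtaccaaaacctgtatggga
Usp11 (X:20703659-20703908, plus strand): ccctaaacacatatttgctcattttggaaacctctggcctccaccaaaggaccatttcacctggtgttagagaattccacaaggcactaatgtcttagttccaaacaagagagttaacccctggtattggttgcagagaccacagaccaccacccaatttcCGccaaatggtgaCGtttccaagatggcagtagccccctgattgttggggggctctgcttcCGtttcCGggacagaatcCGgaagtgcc
Otud5 (X:7841581-7841830, plus strand): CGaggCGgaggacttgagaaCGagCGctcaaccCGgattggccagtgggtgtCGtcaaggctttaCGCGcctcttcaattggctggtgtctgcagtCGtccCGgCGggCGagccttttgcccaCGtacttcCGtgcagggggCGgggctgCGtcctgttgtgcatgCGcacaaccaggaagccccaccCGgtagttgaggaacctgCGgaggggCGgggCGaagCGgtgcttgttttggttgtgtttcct
Zfp300 (X:21089230-21089479, minus strand): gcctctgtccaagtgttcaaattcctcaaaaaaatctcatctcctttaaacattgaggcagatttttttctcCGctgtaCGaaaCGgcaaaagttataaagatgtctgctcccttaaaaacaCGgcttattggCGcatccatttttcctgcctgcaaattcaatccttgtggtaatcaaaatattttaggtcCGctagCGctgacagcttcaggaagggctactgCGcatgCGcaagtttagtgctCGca
The Otud5 window held 22 CG dinucleotides, the windows of Uba1 and Zfp300 held 10 each and that of Usp11 held 5. A RefSeq start could be matched for 59 of the 66 members. Their median was 12 CG in 250 bases, against 13 over the 262 other X-linked genes of the allelic ratio tables with a matched start, and 69.5% of members reached 10 CG, against 65.3% of those genes. Over all 601 other X-linked genes with a matched start, most of which are outside the tables, the median was 6 CG and 36.9% reached 10. Over all 16242 genes the median was 10 CG and 52.3% reached 10. These are counts of letters on these windows and say nothing of methylation.

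Libraries held 9344054 to 31216487 fragments, of which 44.81 to 50.25% were assigned to an allele. Smchd1 RNA stayed present in every library, at 360 to 709 RPM (fragments of the gene per 1000000 fragments of the library) in WT and 217 to 616 RPM in KO libraries, so that its level did not check the labels of mutants made by small edits. Of the NPC markers, Nes (24.6 to 298 RPM) and Vim (88.5 to 732 RPM) were present in all 17 late libraries, Pax6 reached at most 9.39 RPM, and Sox1 was at 0 in all 17. The 5 fibroblast markers, which also mark the feeder cells on which mESCs were grown, summed to 5.33 to 29.3 RPM in uninduced cells and to 245 to 15000 RPM in late libraries. Late medians were 2290 RPM for Col3a1, 275 for Col1a1, 81.9 for Col1a2 and 24.6 for Twist2, against 5.06, 3.78, 3.41 and 2.23 RPM in uninduced cells. Thy1 went the other way, with a late median of 0.32 RPM against 1.44 RPM. The sum of the 5 markers was 378 to 7680 RPM in WT and 782 to 9480 RPM in A3 libraries of iXist-ChrX_Dom. In iXist-ChrX_Cast it was 245 to 7690 RPM in WT, 2760 to 15000 RPM in D5 and 1070 to 12700 RPM in G6 libraries, and on each late day both KO clones lay above WT (2760 and 1070 against 245 RPM at day 15, 3780 and 6750 against 2120 at day 21, and 15000 and 12700 against 7690 at day 35). Whether fibroblasts or feeder cells were present in late libraries, and their part in the late results, was not tested.

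Several late iXist-ChrX_Dom libraries stood apart in a stretch of the members. The Xi share is the number of Xi fragments of a gene divided by its Xi and Xa fragments. In the A3 library of day 35 the members that start between 6 and 11 Mb had a median Xi share of 0.318 (35 of 36 above 0.1) and those between 12 and 18 Mb had 0.229 (9 of 9), while those between 20 and 24 Mb had 0.0246 (3 of 21) and the other X-linked genes had 0.0135. In the other A3 libraries the same medians were 0.0205, 0.0241 and 0.033 in the first stretch and 0.0172, 0.0192 and 0.0323 in the second, at days 15, 21 and 52. The WT line had a smaller stretch of the same kind. At 6 to 11 Mb its median was 0.00632 at day 15, 0.0453 at day 21, 0.175 at day 35 and 0.0942 at day 52, and 30 of 36 members were above 0.1 at day 35. The WT medians at 12 to 18 Mb stayed between 0.00592 and 0.0222. The stretches were drawn after these values were seen.

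**Figure D1:**
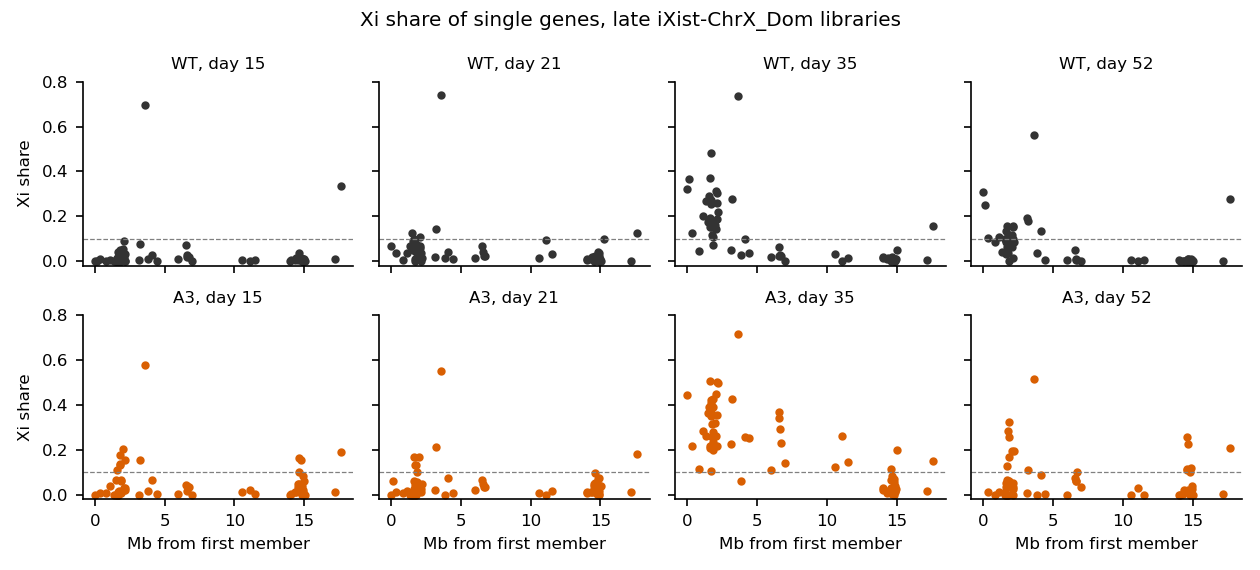
Each panel plots the Xi share (y axis) of single members in 1 late iXist-ChrX_Dom library against their distance in Mb from the first member (x axis), WT above and A3 below, for genes with at least 10 allelic fragments, with a dashed line at 0.1. Most points of the left part rise above the line in A3 at day 35 and in WT at day 35, and the points at the right stay low.

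Single genes with many fragments showed the step plainly. Shroom4, an actin-associated protein, had Xi shares of 0.00748, 0.0367, 0.126 and 0.103 in WT and of 0.00604, 0.0115, 0.219 and 0.0116 in A3 at days 15, 21, 35 and 52. The A3 value at day 35 rested on 1009 of 4613 fragments (95% Wilson interval 0.207 to 0.231, for counting error only). Med14, a Mediator subunit, was at 0.0201, 0.0222, 0.0248 and 0.0101 in WT and at 0.0172, 0.0324, 0.294 and 0.0586 in A3. Shroom4 was thus high in 3 WT libraries and 1 A3 library, and Med14 in the A3 library of day 35 only. The WT change lay between Tspan7 (10.485 Mb) and Bcor (12.037 Mb), and the A3 change between Fundc1 (17.557 Mb) and Chst7 (20.06 Mb). Among the genes left out by name, Cask had 0.13 at day 35 in A3, against 0.00186 to 0.00498 on the other late days, and Kdm6a had 0.179, against 0.152 to 0.184.

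The step came from more Xi fragments, not from fewer Xa fragments. In the A3 library of day 35, set against the mean of the other late A3 libraries, the Xi level in RPM was higher by 3.03 on the log2 scale in the median of 29 members at 6 to 11 Mb, and the Xa level by 0.3 (pseudocount 0.1 RPM, genes with at least 20 allelic fragments). At 12 to 18 Mb the differences were 3.36 and 0.34 (8 members), at 20 to 24 Mb 0.02 and 0.28 (16 members), and over 145 other X-linked genes 0 and 0.05. In WT, day 35 against day 15 gave 2.64 for Xi and 0.31 for Xa fragments at 6 to 11 Mb. No cause of the step was tested. In iXist-ChrX_Cast no late library had such a step: the medians of all 3 stretches were at 0 to 0.0198 in WT, 0.00943 to 0.0409 in D5 and 0.0167 to 0.0494 in G6. The fibroblast marker sum was 1090 RPM in the A3 library of day 35 and 1790 RPM in WT at day 35, and its part in the step was not tested.

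**Figure D2:**
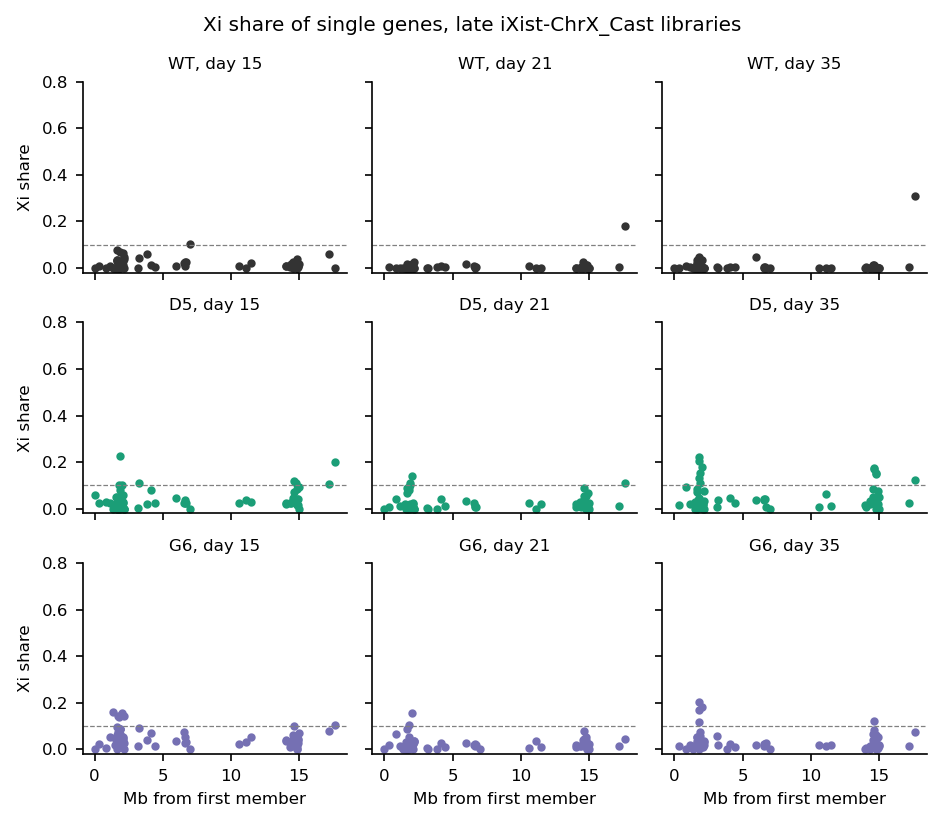
Each panel plots the Xi share (y axis) of single members in 1 late iXist-ChrX_Cast library against their distance in Mb from the first member (x axis), for WT, D5 and G6 from top to bottom, with at least 10 allelic fragments and a dashed line at 0.1. Points lie mostly below the line at all positions, and the last point, Wdr44, is at 0.308 in WT at day 35.

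Over the time course the members lost Xi expression later than the rest of the X. In uninduced A3 mESCs the median Xi share of the members was 0.504 and 0.516 in the 2 replicates. In WT iXist-ChrX_Dom it was 0.29 ± 0.0262 at day 2 (SD, n = 2), 0.0776 ± 0.0125 at day 5 and 0.026 ± 0.00247 at day 7, and over the other X-linked genes it was 0.173 ± 0.0219 at day 2 and 0.0128 ± 0.00205 at day 7. In WT iXist-ChrX_Cast it was 0.256 ± 0.0163 at day 2 (n = 2), 0.0528 ± 0.0153 at day 5 and 0.03 ± 0.00917 at day 7 (n = 3), and over the other genes 0.135 ± 0.0177 and 0.0155 ± 0.00606. At day 2 every WT library had a higher median over the members than over the other X-linked genes in the table of its line. KO libraries had 0.0748 ± 0.00969 (A3), 0.076 ± 0.00438 (D5) and 0.0641 ± 0.00544 (G6) at day 5, and at day 7 the members' median was 0.0495 ± 0.00389 in A3, 0.0599 ± 0.0192 in D5 and 0.0493 ± 0.0112 in G6 (n = 2 each). Libraries marked R2 were above R1 of the same replicate in all 7 pairs, for example 0.196 against 0.111 in D5 at day 3, and the pairs were summed here.

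**Figure D3:**
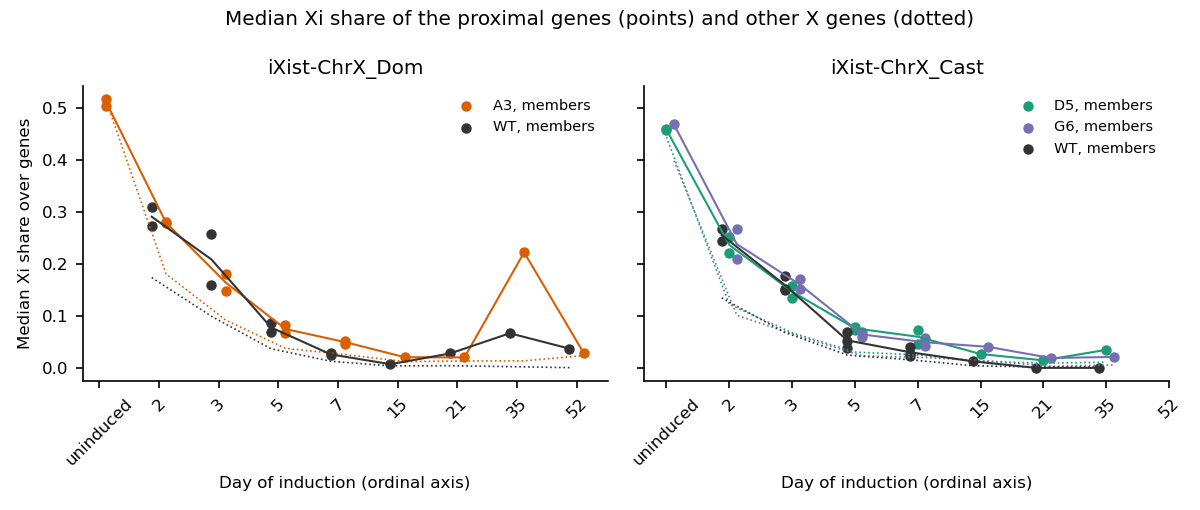
The median Xi share over the members (points, 1 per replicate, with solid lines through their means) and over the other X-linked genes (dotted lines) is plotted on the y axis against day of induction (x axis, ordinal) for each clone, with iXist-ChrX_Dom at left and iXist-ChrX_Cast at right. The members lie above the other genes at days 2 to 7, and the A3 point of day 35 stands at 0.222.

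The silencing half-time, the time to reach 50% of the fitted starting share in WT cells, had a median of 2.03 days over 66 members in iXist-ChrX_Dom (quartiles 1.64 and 2.49) and of 1.88 days over 62 members in iXist-ChrX_Cast (1.54 and 2.28). The other X-linked genes had medians of 1.29 days (180 genes) and 1.18 days (337 genes), over sets that differ between the lines. Half-times of the same members in both lines went together (Spearman's rho = 0.603, Pearson's r = 0.7, n = 62 genes, given as a description, since genes of a library share its depth and culture). The start of a member within the stretch had rho = 0.103 and 0.189 with its half-time in the 2 lines.

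Ranked by the mean of both lines, the members with the shortest half-times were Zfp300, a zinc finger gene (1.14 days in iXist-ChrX_Dom and 1.03 days in iXist-ChrX_Cast), Dgkk, a diacylglycerol kinase (1.21 and 1.08), Sytl5, a synaptotagmin-like protein (1.06 and 1.37), and Chst7, a carbohydrate sulfotransferase (1.04 and 1.54). The Xi share of Zfp300 was 0.178 ± 0.111 at day 2 and 0.056 ± 0.00277 at day 3 in WT iXist-ChrX_Dom (n = 2). By the same ranking the longest were those of Wdr44, a WD repeat protein (5.47 and 3.97 days), Suv39h1, a histone H3 lysine methyltransferase of heterochromatin (3.76 and 2.72), Xk, a membrane protein (3.26 and 2.51), and Rpgr, a protein of the photoreceptor cilium (2.69 and 2.86). Suv39h1 was still at 0.496 ± 0.036 at day 2 and at 0.1 ± 0.0237 at day 7 in WT iXist-ChrX_Dom (n = 2). Wdr44 rested on a median of 27.5 and 29 allelic fragments per library in the 2 lines, and Zfp300 on 27.5 and 22, so the values of both are uncertain. Dynlt3 had no finite half-time. Its share was 0.909 in uninduced A3 cells, far from equal expression of the alleles, so its Xi share cannot be read on the same scale as those of the other members.

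**Figure D4:**
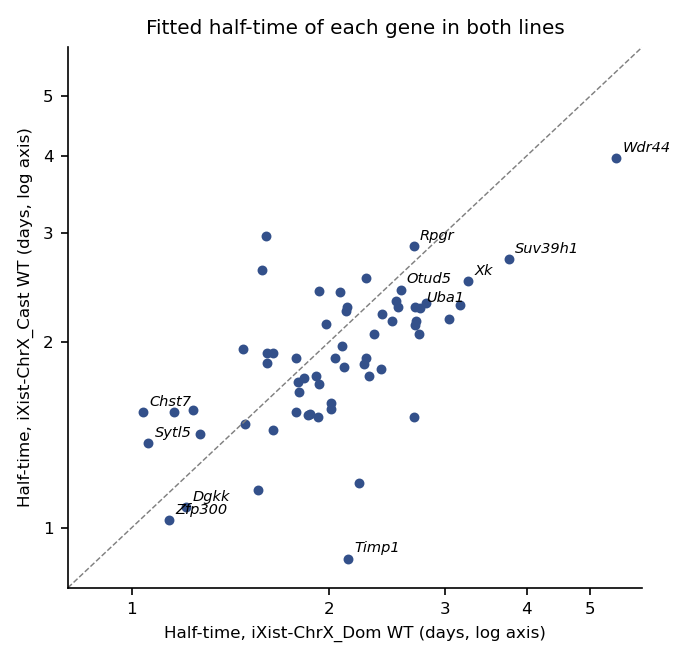
The fitted half-time of each gene in WT iXist-ChrX_Cast (y axis, days, log axis) is plotted against that in WT iXist-ChrX_Dom (x axis, days, log axis), 1 point for each of the 62 members in both tables, with a dashed line of equal values. Most points lie between 1 and 3 days, with Wdr44 alone at 5.47 and 3.97 days.

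The first question was which members stayed less silenced without SmcHD1 at days 15 and later. In iXist-ChrX_Dom, 10 of 63 members tested had a higher Xi share in A3 than in WT and none was lower, against 27.4% of all genes tested that were called higher (edgeR quasi-likelihood test on Xi and Xa counts with day in the model, adjusted p below 0.05 over the whole table). The members' share of calls was therefore below that background. The raised stretches entered both arms of this comparison: 1 of 35 members at 6 to 11 Mb, 2 of 8 at 12 to 18 Mb and 7 of 20 at 20 to 24 Mb were called. Without day 35 the 3 stretches gave 1, 0 and 6 calls, and 1 member was lower. With A3 at day 35 and WT at days 21, 35 and 52 left out, an alternative chosen after seeing the data that leaves 1 WT library, no member was called (9 at an unadjusted p under 0.05). On all late libraries, limma on the Xi share called 0 members (13 at an unadjusted p under 0.05), against 4.82% of the other X-linked genes. DESeq2 called 14 (22.2%), against 35.3% of the others.

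In iXist-ChrX_Cast, 27 of 57 members tested had a higher Xi share in the KO clones against 28% of all genes tested, and none was lower (0.27%). The fibroblast marker sum was also higher in both KO clones than in WT on each of these days, and its part in this result was not tested. The calls fell on 15 of 30 members at 6 to 11 Mb, 2 of 8 at 12 to 18 Mb and 10 of 19 at 20 to 24 Mb. The KO mean was higher for 57 of 62 members (91.9%, against 79.2% of the other X-linked genes), with a median difference in Xi share of 0.0189, while in iXist-ChrX_Dom it was higher for 50 of 66 (75.8%, against 80% of the others), with a median of 0.0193. The count in iXist-ChrX_Cast depended on the test, and edgeR estimated 1 spread for all genes of this fit. By edgeR the members' share of calls was 47.4%, against 24.5% of the other X-linked genes. DESeq2 called 14 members (24.6%, against 19.7% of the others). limma on the share called 2, Suv39h1 and Uba1 (3.51%, against 8.92% of the others). The members' higher share of calls was thus small under DESeq2 and absent under limma. Leaving out 1 day gave 13 to 17 calls by edgeR (22.4 to 28.3%, against 15.9 to 20.7% of the others).

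7 members were called higher in both lines by edgeR. In the single lines 27.4% and 28% of all genes tested were called higher. The share of all genes called in both lines was not computed, so the 7 cannot be set against a background. The values of each late library follow for the main ones. Uba1 (X:20658301-20683179) encodes the enzyme that activates ubiquitin. Its Xi share was 0.0376, 0.0211, 0.0112 and 0.0012 in WT and 0.162, 0.0973, 0.112 and 0.258 in A3 at days 15, 21, 35 and 52. In iXist-ChrX_Cast it was 0.0207, 0.00985 and 0.0129 in WT, 0.119, 0.0895 and 0.174 in D5 and 0.0987, 0.0784 and 0.12 in G6 at days 15, 21 and 35. Every KO library was above every WT library in both lines. The log2 odds ratio of KO against WT was 3.58 (SE 0.73, edgeR adjusted p = 0.000912) in iXist-ChrX_Dom and 3.14 (SE 0.55, adjusted p = 2.32e-07) in iXist-ChrX_Cast.

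Araf (X:20848542-20860521), a kinase of the RAF family, was at 0.0131, 0.00739, 0.00525 and 0 in WT and at 0.156, 0.0717, 0.0712 and 0.1 in A3. The 0 of WT at day 52 was 0 of 720 fragments, which allows a share of up to 0.00417. In iXist-ChrX_Cast its shares were 0.0178, 0.00353 and 0.00413 in WT, 0.112, 0.0547 and 0.149 in D5 and 0.0529, 0.0535 and 0.0618 in G6. The groups did not overlap in either line, and the log2 odds ratios were 4.24 (SE 0.7, edgeR adjusted p = 9.54e-05) and 3.35 (SE 0.64, adjusted p = 2.34e-06). Cdk16, a cyclin-dependent kinase of the PCTAIRE group that lies between Uba1 and Usp11, ranged from 0.00855 to 0.0182 in WT and from 0.0531 to 0.225 in A3, and from 0.00645 to 0.0171 in WT and 0.0455 to 0.171 in the KO clones of iXist-ChrX_Cast. Its log2 odds ratios were 3.14 (SE 0.76, edgeR adjusted p = 0.00387) and 2.85 (SE 0.77, adjusted p = 0.00135).

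Otud5 (X:7841830-7876626), a deubiquitinase, lay inside the raised stretch of iXist-ChrX_Dom. Its share was 0.0186, 0.0589, 0.173 and 0.0832 in WT and 0.175, 0.132, 0.358 and 0.284 in A3. The groups overlapped, because WT at day 35 lay above A3 at day 21. The log2 odds ratio was 2.02 (SE 0.57, edgeR adjusted p = 0.011), and without day 15 it was 1.61 and the call was lost (adjusted p = 0.0697). In iXist-ChrX_Cast the shares were 0.0311, 0.00538 and 0.0129 in WT, 0.101, 0.0805 and 0.22 in D5 and 0.141, 0.0519 and 0.117 in G6, with no overlap and a log2 odds ratio of 2.98 (SE 0.6, adjusted p = 1.02e-05).

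The other 3 of the 7 lay near 21 Mb. Uxt, a prefoldin-like protein and transcriptional cofactor, had late shares of 0 to 0.0361 in WT and 0.0382 to 0.118 in A3, and of 0 to 0.0137 in WT and 0.0223 to 0.0938 in the KO clones of iXist-ChrX_Cast. Rbm10, an RNA-binding splicing regulator, had 0.00352 to 0.0181 in WT and 0.0293 to 0.116 in A3. In iXist-ChrX_Cast its WT value of day 15 (0.0271) lay above D5 at day 21 (0.0227), so the groups overlapped. Zfp182, a zinc finger gene, had 0.00323 to 0.0104 in WT and 0.0243 to 0.0587 in A3, and 0.00195 to 0.016 in WT and 0.0176 to 0.0925 in the KO clones of iXist-ChrX_Cast. The log2 odds ratios in iXist-ChrX_Dom and iXist-ChrX_Cast were 2.95 (SE 0.97) and 3.55 (SE 0.94) for Uxt, 2.53 (SE 0.82) and 2.13 (SE 0.8) for Rbm10, and 2.25 (SE 0.61) and 2.93 (SE 0.68) for Zfp182, with edgeR adjusted p between 0.000133 and 0.0292. The call of Rbm10 in iXist-ChrX_Cast was lost under DESeq2 (adjusted p = 0.0761) and without day 21 (0.157) or day 35 (0.229), and that in iXist-ChrX_Dom without day 15 (0.0506) or day 52 (0.158). That of Uxt in iXist-ChrX_Dom was lost without day 15 (edgeR adjusted p = 0.131) or day 52 (0.0521). Under limma, all of the calls of the 7 members were lost in both lines except that of Uba1 in iXist-ChrX_Cast.

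**Figure D5:**
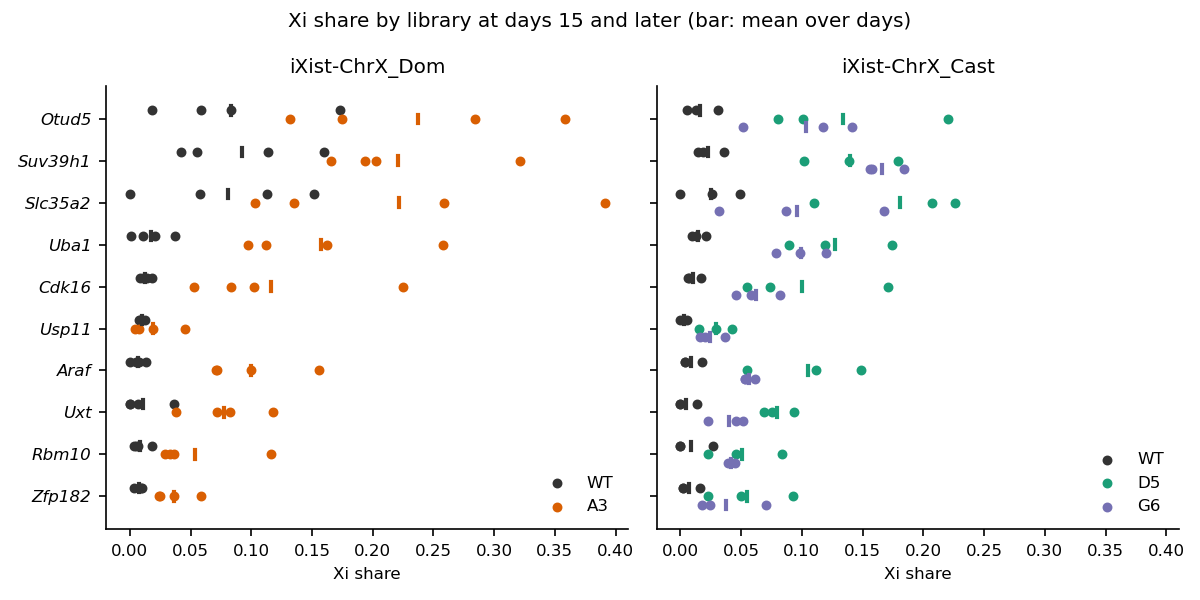
The Xi share (x axis) of named members is plotted for every late library (points) with the mean over days (bars), by clone, with iXist-ChrX_Dom at left and iXist-ChrX_Cast at right. For Uba1 and Araf every KO point lies to the right of every WT point in both lines.

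Usp11 (X:20703908-20720539), a deubiquitinase named here after its values were seen, had shares of 0.00997, 0.00765, 0.0126 and 0.00843 in WT and 0.0457, 0.00776, 0.00452 and 0.0188 in A3, so the groups overlapped, and its log2 odds ratio was 0.66 (edgeR adjusted p = 0.626). In iXist-ChrX_Cast, Usp11 had 0.00525, 0.00233 and 0 in WT, 0.0291, 0.0155 and 0.0422 in D5 and 0.0367, 0.0203 and 0.0158 in G6, with no overlap and a log2 odds ratio of 3.19 (SE 0.73, adjusted p = 0.000109). The difference of its KO effect between the lines was -2.53 on the log2 scale (adjusted p = 0.125). The KO shares of Usp11 reached at most 0.0457, while those of Uba1 and Cdk16 reached 0.258 and 0.225. No test between genes was run.

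3 of the 4 members named as called in 1 line were called in iXist-ChrX_Cast. Suv39h1 had 0.0146, 0.0189 and 0.0357 in WT, 0.102, 0.139 and 0.179 in D5 and 0.158, 0.156 and 0.184 in G6, with no overlap (log2 odds ratio 2.94, SE 0.69, edgeR adjusted p = 0.000142). In iXist-ChrX_Dom it had 0.0551, 0.0419, 0.16 and 0.114 in WT and 0.203, 0.166, 0.321 and 0.194 in A3, with no overlap there either, and a log2 odds ratio of 1.6 (SE 0.64, adjusted p = 0.0711). Slc35a2, a UDP-galactose transporter, ranged from 0 to 0.0488 in WT and from 0.0317 to 0.226 in the KO clones of iXist-ChrX_Cast. Its log2 odds ratio was 2.6 (edgeR adjusted p = 0.0158), and the call was lost under limma (adjusted p = 0.092), under DESeq2 (0.0621) and without any 1 of the 3 days (0.0593 to 0.101). Timm17b, a subunit of the mitochondrial import channel, was at 0 in all 3 WT libraries (of 27, 38 and 36 fragments at days 15, 21 and 35, which allow shares of up to 0.111, 0.0789 and 0.0833) and at 0.0159 to 0.111 in the KO clones. Its log2 odds ratio was 4.44 (edgeR adjusted p = 0.0451), and the call was lost under limma, under DESeq2 and without any 1 of the 3 days. 1810030O07Rik was called in iXist-ChrX_Dom, where its A3 values were 0.0391, 0.0481, 0.341 and 0.0625, and its call was lost without day 35 (edgeR adjusted p = 0.319). Med14, named after its values were seen, and Shroom4 were higher in the KO clones of iXist-ChrX_Cast, in which no stretch was raised (log2 odds ratios 2.55, SE 0.5, edgeR adjusted p = 5.01e-06, and 2.1, SE 0.49, adjusted p = 0.00013).

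12 members had a mean WT share above 0.1 at late days in a line. In iXist-ChrX_Dom, 10 of them lay in the raised stretch (Nudt11 and Nudt10, phosphohydrolases of diphosphoinositol phosphates, Ccdc22, Plp2, Wdr45, Tfe3, Rbm3, Tbc1d25, Xk and Dynlt3). Dynlt3 was at 0.563 to 0.741 in late WT libraries, on a scale that differs from that of the other members, as given above. Rbm3, a cold-induced RNA-binding protein, was at 0.0223, 0.0669, 0.311 and 0.151 in WT and at 0.0313, 0.0401, 0.449 and 0.0513 in A3. The WT mean of Rbm3 was thus set by days 35 and 52. In iXist-ChrX_Cast the late WT shares of Rbm3 were 0.0133, 0.0115 and 0.000997. Gm6938 had at most 20 allelic fragments in a late library, and Wdr44 at most 32 in iXist-ChrX_Dom, so neither late share was precise. Wdr44, the member that starts closest to Xist, was the only one of the 62 shared members above 0.1 in iXist-ChrX_Cast WT as well.

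At days 5 and 7 fewer members differed. 5 of 66 members were higher in A3, against 9.8% of all genes tested, and none was lower (0.408%). 8 of 62 members were higher in the KO clones of iXist-ChrX_Cast, against 5.01%, and none was lower (0%). Araf (log2 odds ratio 1.27, SE 0.38, edgeR adjusted p = 0.0145 in iXist-ChrX_Dom and 1.18, SE 0.29, adjusted p = 0.0106 in iXist-ChrX_Cast) and Ppp1r3f, a regulatory subunit of protein phosphatase 1 (1.9, SE 0.65, adjusted p = 0.0385 and 1.74, SE 0.54, adjusted p = 0.0479), were called in both lines. Otud5, Pim2 and Slc35a2 were the others in iXist-ChrX_Dom, and Shroom4, Tspan7, Fundc1, Chst7, Timp1 and Zfp182 those in iXist-ChrX_Cast. The share of all genes called in both lines on these days was not computed. The counts of members were not stable: limma on the share called 0 members in iXist-ChrX_Cast, and leaving out 1 replicate gave 0 to 5 calls in iXist-ChrX_Dom. At days 2 and 3, 0 members and 0% of all genes tested were called by edgeR in either line. At an unadjusted p under 0.05 it was 4 and 3 members, a threshold for which no share over all genes is given. The KO mean was higher for 22 of 66 and 28 of 62 members.

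The KO effect was larger at late days than at days 2 and 3 for 16 of 64 members in iXist-ChrX_Dom (35.3% of all genes tested) and for 32 of 62 in iXist-ChrX_Cast (32.8%), by the test of the difference itself. At days 2 and 3 the sum of 6 pluripotency markers was 535 to 835 RPM in WT and 238 to 590 RPM in A3. In iXist-ChrX_Cast it was 223 to 397 RPM in WT, 261 to 478 in D5 and 158 to 306 in G6. Xist was at 5050 to 8900 RPM in WT and 6800 to 12000 RPM in A3. In iXist-ChrX_Cast it was at 6420 to 14400 RPM in WT, 3900 to 8900 in D5 and 7320 to 19800 in G6. The part of these levels in the late against early result was not tested. Each clone of iXist-ChrX_Cast gave its own calls, 20 of 57 members in D5 (29.1% of all genes, 0.27% lower) and 21 of 57 in G6 (21.8%, 0.539% lower), with no member lower in either. The test of D5 against G6 called 0 of 57 members by edgeR, and 2.7% of all genes were called higher in D5. At an unadjusted p under 0.05 it was 1 member. Between the lines 1 of 59 members differed in its late KO effect, and lower in iXist-ChrX_Dom (1.8% of all genes were). It was Shroom4 (difference of log2 odds ratios -3.18, SE 0.81, edgeR adjusted p = 0.0055), whose WT shares in iXist-ChrX_Dom belong to the raised stretch, and leaving out day 15, 21 or 52 lost the call.

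The total RNA of the members did not pass the test in either line. No member of 65 and of 66 was called on all fragments by edgeR, and 0% of all genes were. At an unadjusted p under 0.05 it was 8 members in each line, against 10.7% and 12.7% of all genes tested. DESeq2 called 1 member in each line. The smallest adjusted p was 0.462 in iXist-ChrX_Dom and 0.303 in iXist-ChrX_Cast. The members' median log2 fold changes were 0.01 and 0.02, against 0 and -0.01 over all genes. In bulk RNA, fewer cells that express a gene from the Xi and less Xi RNA per cell cannot be told apart.

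By role, the members called late in iXist-ChrX_Cast were 6 of 8 tested genes of transcription and chromatin, 6 of 13 of membrane traffic, cytoskeleton and cilium, 4 of 8 of ubiquitin and autophagy, 4 of 10 of transport and metabolism, 3 of 8 kinases and signalling genes, 2 of 5 of RNA processing and 2 of 5 of other or unknown role. In iXist-ChrX_Dom the same groups gave 2 of 9, 0 of 14, 2 of 8, 1 of 12, 2 of 9, 1 of 5 and 2 of 6. Over all members, 27 of 57 (47.4%) were called in iXist-ChrX_Cast by edgeR, against 28% of all genes tested. In iXist-ChrX_Dom it was 10 of 63 (15.9%), against 27.4%. The groups are small, and no group was tested as a list. Called members had more allelic fragments than members tested and not called, with a median of 332 against 161 per library in iXist-ChrX_Dom and of 413 against 120 in iXist-ChrX_Cast. They also had a higher uninduced level, 3.13 against 1.35 and 2.24 against 1.46 RPM per kb. The part of this depth in which members were called was not tested.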

How the data were processed

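ChrRNA-seq of mESCs and NPCs was analysed for WT and SmcHD1 KO cells of 2 lines. Per the submitters' processing notes and the methods, the authors aligned reads with Bowtie2 2.3.2 (ribosomal reads) and STAR 2.4.2a (SNP-masked mm10), split them by allele and counted fragments with featureCounts, and the deposited files hold whole-number counts per gene: all fragments and those of each allele. The authors also deposited allelic ratios as a fraction per X-linked gene. The iXist-ChrX_Cast ratios equalled those of the counts. In the table of iXist-ChrX_Dom, the 26 columns of per-sample values were not used, since they carried names of other libraries, so only its gene list was taken and shares were computed from the allelic counts.

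The 72 libraries gave 65 replicates, R1 and R2 of one replicate being summed. Depth was 9344054 to 31216487 fragments per library. Xi and Xa counts were tested with edgeR 4.0.16 (quasi-likelihood, library as a factor, Xi-by-day and Xi-by-genotype terms) over all genes of a line's table with at least 10 allelic fragments in more than 80% of libraries, with Benjamini-Hochberg adjustment. Alternatives were limma 3.58.1 on the share, DESeq2 1.42.0, no filter, a replicate block, R1 and R2 apart and leaving out each replicate or day. Total counts were tested with edgeR (TMM). The scripts were tested on simulated data with small and larger spread. Half-times were fitted by least squares to an exponential decay, with the uninduced KO share as day 0, and with a free plateau where the late WT share was above 0.1. Intervals are 95% Wilson intervals and a 0 is given the limit of 3 fragments. Intervals and limits cover counting error only. Named genes were members called late in both lines, up to 4 called in 1 line, the 4 shortest and 4 longest half-times, members with a late WT share above 0.1, and those of the clone and line tests. The members and the lists were chosen with earlier results of these data known. R 4.3.3, Python 3.11.15, numpy 2.4.6, scipy 1.17.1 and pandas 2.3.3 were used.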

Additional observations from a re-analysis of the deposited data

Results flagged for a closer look

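Results were picked out here where 1 of 4 late libraries of a group lay far from the others (Dixon's criterion on the gap over the range) or where an effect differed between periods or lines. Chance alone does so for about 1 in 20 groups. In A3 at day 35 the median share of the members was 0.222, and single genes stood apart in the same library: Nudt10 at 0.625, Tbc1d25 at 0.504, Rbm3 at 0.449, Ccdc22 at 0.39, 1810030O07Rik at 0.341, Rpgr at 0.255, Timm17b at 0.233, Shroom4 at 0.219 and Dgkk at 0.113. All of these lay in the raised stretch, and they share 1 library, so they are not separate observations. Rbm10 in A3 at day 52 was at 0.116 (29 of 250 fragments). Zfp300 in WT at day 35 was at 0.0476, which was 1 of 21 fragments. The value of Nudt10 above was 5 of 8 fragments, so neither it nor that of Zfp300 is precise. The KO effect differed between late days and days 2 and 3 for 16 members in iXist-ChrX_Dom and 32 in iXist-ChrX_Cast. The late KO effect of Shroom4 differed between the lines by -3.18 (log2 odds ratio).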

How the results depend on the processing

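The limits of these values are few libraries (1 per clone and late day), 1 KO clone in iXist-ChrX_Dom, days that stand in for replicates, a stretch of raised shares in several late libraries and low counts at many members. The edgeR fit of iXist-ChrX_Cast pooled 1 spread over all genes. In simulated data with a small spread edgeR recovered most changed genes, but with a larger spread and smaller changes it missed most of them in most runs.

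Without the day 0 point the median half-times were 1.59 days (iXist-ChrX_Dom) and 1.44 days (iXist-ChrX_Cast), and in iXist-ChrX_Cast they were 1.95 with summed counts and 1.88 to 1.94 without 1 replicate. Members called higher in the KO under limma were 0 in iXist-ChrX_Dom late, 2 in iXist-ChrX_Cast late, 0 in iXist-ChrX_Cast at days 5 and 7, 8 in D5, 1 in G6, 0 between the lines, and 3 and 7 for late against early effects. Under DESeq2 they were 1 at days 5 and 7 in iXist-ChrX_Dom, and 14 late and 4 at days 5 and 7 in iXist-ChrX_Cast. On total counts DESeq2 called 1 member in each line, higher in the KO in iXist-ChrX_Dom and lower in iXist-ChrX_Cast. With R1 and R2 apart iXist-ChrX_Cast gave 3 at days 5 and 7. Whether the replicate numbers pair the samples is not known. Deviations of same-numbered libraries correlated between -0.371 and 0.269. Where a clone has 2 replicates these deviations mirror each other, so the correlations do not exclude a pairing. In the deposited names, WT replicate 1 of iXist-ChrX_Dom writes its day as A3 replicate 2 does. The replicate block may therefore join libraries that do not belong together. With a replicate block the members called at days 5 and 7 were 0 in iXist-ChrX_Dom and 16 in iXist-ChrX_Cast. Leaving out 1 library or day gave 0 to 5 members at days 5 and 7 and 0 to 1 at days 2 and 3 in iXist-ChrX_Dom, 3 to 14 at days 5 and 7 and 13 to 17 late in iXist-ChrX_Cast, 12 to 19 in D5, 11 to 12 in G6 and 0 to 1 between the lines. Without A3 at day 35 and WT at days 21, 35 and 52, chosen after seeing the data, 0 members were called late in iXist-ChrX_Dom.

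Of the named members, those whose sign turned under an alternative were not called in that comparison. In iXist-ChrX_Dom these were Dgkk (limma -0.00289, without 1 day -0.24 to 1.2), Sytl5 (limma -0.00222, DESeq2 -0.38, without 1 day -1.46 to 0.52), Nudt11 (DESeq2 -0.32, without 1 day -2.32 to 0.71), Tfe3 (without 1 day -0.07 to 0.43), and Rbm3 (limma 0.00509, without 1 day -0.67 to 0.21). With the 4 libraries left out the signs turned for Sytl5 (-0.82), Ccdc22 (2.89), Wdr45 (0.48), Rbm3 (0.85) and Shroom4 (0.33). In iXist-ChrX_Cast they were Sytl5 (DESeq2 0.44, without 1 day -0.81 to 0.51), Wdr44 (without 1 day -1.8 to 0.5), Plp2 (without 1 day -0.5 to 4.05) and Tbc1d25 (without 1 day -0.05 to 3.22). The cause was not tested.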
